A study of Mus musculus with 4 samples.

Results

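The 10 genes described here encode the constant parts of the mouse T cell receptor and its coreceptors. Trac, Trbc1 and Trbc2 give the constant regions of the alpha and beta chains, Trdc, Tcrg-C1, Tcrg-C2 and Tcrg-C4 those of the delta and gamma chains, and Cd8a, Cd8b1 and Cd4 the coreceptors. They were chosen by symbol, and all 10 were found among the 32285 genes of the count matrix. They are described in barcodes (droplets read as cells) that held at least 500 unique molecular identifiers (UMIs, a count of captured RNA molecules), at least 250 genes, at most 25% mitochondrial UMIs and at least 2 UMIs summed over Cd3d, Cd3e and Cd3g. These are called Cd3 barcodes, and there were 1664 of them among 25788 barcodes past the quality limits and 44277 in all.

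Live cells of the epithelial layer of the small intestine, ileum to jejunum with the Peyer's patches removed, were profiled by droplet single-cell RNA sequencing of transcript 3′ ends. The labels give 2 samples from mice fed IPA (3-indolepropionic acid, a bacterial tryptophan metabolite) at 562.5 mg per kg of diet and 2 samples from mice on the control diet. Mice of both groups were C57BL/6J males that received, from 8 weeks of age and for 7 weeks, high-fat feed (HFD) together with the nitric oxide synthase inhibitor l-NAME. They were taken at 15 weeks, and each sample pooled 2 mice. The only gate was the exclusion of the dead-cell dye DAPI, so no marker selected T cells. The matrix distinguishes 4 libraries by a barcode suffix, and no label used here ties a suffix to a sample. No comparison of diets was therefore made, and every value is given per library. Intervals in parentheses are exact 95% intervals (Clopper-Pearson for shares, Poisson for UMI sums) and cover counting error only.

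As background, an alpha-beta receptor recognises peptide bound to MHC, with CD8 or CD4 binding the MHC molecule beside it, whereas a gamma-delta receptor needs no classical MHC. T cells that sit between enterocytes of the mouse small intestine include both receptor types, and many of them carry CD8 as a homodimer of CD8 alpha chains. CD8 beta, from Cd8b1, pairs with CD8 alpha on conventional cytotoxic T cells. The delta locus lies inside the alpha locus, and constant genes can be transcribed without a productive rearrangement, so a UMI of a constant gene does not by itself show a receptor chain on the cell.

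The Cd3 barcodes were very unequally spread over the libraries. Library 1 held 330 (5.345% of its 6174 barcodes past the limits), library 2 held 4 of 7122 (0.0562%), library 3 held 1324 of 6307 (21.0%) and library 4 held 6 of 6185 (0.0970%). Libraries 1 and 3 therefore carry nearly every result below, while total depth was alike, at 173564399 to 209357877 UMIs per library. The median Cd3 barcode held 3765 UMIs in library 1 and 4022.5 in library 3, against 27622 and 22601 over all barcodes past the limits, which were mostly epithelial. Among Cd3 barcodes, 28 of library 1 and 141 of library 3 held over 10000 UMIs and together contributed 42.9% and 50.4% of the UMIs. The 10 epithelial markers summed to 29515 and 36401 UMIs per 1000000 (CPM, counts scaled to the class's total) in Cd3 barcodes of libraries 1 and 3, and the part of epithelial RNA or of mixed droplets in the results was not tested. Cd3d, Cd3e and Cd3g, which chose the barcodes, summed to 3741 and 2920 CPM. Markers of other cell types summed to 35.7 and 30.5 CPM for 6 B cell markers, 242 and 919 CPM for 7 plasma cell markers, 182 and 162 CPM for 10 markers of natural killer and innate lymphoid cells and 41.6 and 33.5 CPM for 9 of macrophages and monocytes. At the threshold itself, 6, 0, 54 and 0 barcodes of libraries 1 to 4 held exactly 2 Cd3 UMIs, and 117, 7, 548 and 2 with 1 UMI were left out. Barcode sequences found in more than 1 library numbered 214 of 44063, and 1 of 1663 among Cd3 barcodes.

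In the mouse genome (mm10), Trdc (chr14:54142851-54148868, plus strand) lies 71.653 kb before Trac (chr14:54220521-54224206, plus). Trbc1 (chr6:41538218-41539881, plus) and Trbc2 (chr6:41546730-41548352, plus) are 6.849 kb apart. Tcrg-C1 (chr13:19214103-19217024, plus), Tcrg-C2 (chr13:19304649-19307551, minus) and Tcrg-C4 (chr13:19344558-19352756, plus) each end a separate cassette of variable and joining segments. Cd8b1 (chr6:71322788-71337494, plus) and Cd8a (chr6:71373427-71379173, plus) are neighbours 35.933 kb apart, and Cd4 (chr6:124864692-124888221, minus) lies elsewhere on chromosome 6.

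Pairs of these genes are near-identical copies, which limits how far their counts can be told apart. Trbc1 and Trbc2 share 495 of 518 aligned coding bases (95.6%), with an identical run of 259 bases, but only 42.4% of the aligned 3′ untranslated region, from which a 3′ assay mostly reads. Tcrg-C1 and Tcrg-C2 share 97.4% of coding and 94.4% of 3′ untranslated bases, with identical runs of up to 104 bases. Tcrg-C4 stands apart, at 75.5% of coding and 51.1% of 3′ untranslated bases shared with Tcrg-C1. Counts of Tcrg-C1 and Tcrg-C2 are thus the least certain to belong to the named gene. The windows of 90 coding bases that follow show where the copies can be separated, with differing bases in capitals, taken from the GENCODE transcripts of mm10. The Trbc windows lie in exon 3 (chr6:41539235-41539324 and chr6:41547778-41547867, both plus) and differ at 14 bases, and the Tcrg-C windows lie in exon 1 (chr13:19214212-19214301, plus, and chr13:19307353-19307442, minus) and differ at 5.
Trbc1: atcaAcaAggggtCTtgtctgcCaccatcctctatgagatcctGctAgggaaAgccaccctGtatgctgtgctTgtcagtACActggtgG
Trbc2: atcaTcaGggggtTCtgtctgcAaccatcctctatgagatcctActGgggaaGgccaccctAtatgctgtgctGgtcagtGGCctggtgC
Tcrg-C1: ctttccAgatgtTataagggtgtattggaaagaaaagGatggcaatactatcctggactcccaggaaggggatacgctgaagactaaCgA
Tcrg-C2: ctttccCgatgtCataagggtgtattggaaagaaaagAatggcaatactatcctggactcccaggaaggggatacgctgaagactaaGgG

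All 7 constant genes were detected in more than 50% of Cd3 barcodes of libraries 1 and 3, which means that alpha, beta, gamma and delta transcripts were each common. Trac, the alpha constant gene, had at least 1 UMI in 70.9% (65.7 to 75.8) of Cd3 barcodes in library 1 and 71.8% (69.2 to 74.2) in library 3. Trbc2 was detected in 89.4% (85.6 to 92.5) and 88.1% (86.3 to 89.8), and Trbc1 in 67.3% (61.9 to 72.3) and 65.1% (62.5 to 67.7). Trdc, the delta constant gene, was detected in 55.8% (50.2 to 61.2) and 52.0% (49.2 to 54.7). The gamma constant genes were found in 59.7% and 55.8% of barcodes for Tcrg-C1, 68.8% and 72.9% for Tcrg-C2, and 67.6% and 68.9% for Tcrg-C4. For each of these genes the intervals of the 2 libraries overlap.

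Among the coreceptors Cd8a was common, and Cd8b1 and Cd4 were rare. Cd8a was detected in 82.7% (78.2 to 86.6) of Cd3 barcodes in library 1 and 77.3% (75.0 to 79.6) in library 3. Cd8b1 was detected in 13.0% (9.59 to 17.1) and 4.53% (3.48 to 5.80), and these intervals do not overlap. Detection of genes outside the members also differed between those libraries, as for Xcl1 (40.6% and 59.3%) and Gzmb (66.7% and 56.3%). The share of all genes whose intervals do not overlap is not given. Cd4 was detected in 4.24% (2.34 to 7.02) and 6.34% (5.09 to 7.79). The 4 Cd3 barcodes of library 2 held 20 UMIs of Cd8a, 0 of Cd8b1 and 1 of Cd4, and the 6 of library 4 held 21, 1 and 0 UMIs. In these small sets a count of 0 limits little, since the intervals reach 60.2% and 45.9% of barcodes.

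Summed levels kept the same picture on the CPM scale, which is not divided by gene length because the assay counts transcript ends. Cd8a summed to 837 CPM (798 to 878) in library 1 and 669 (653 to 686) in library 3, Cd8b1 to 59.4 (49.3 to 71.1) and 21.2 (18.4 to 24.3), and Cd4 to 13.4 (8.81 to 19.5) and 14.6 (12.3 to 17.2). The alpha constant gene Trac summed to 351 and 294 CPM, the beta genes Trbc1 and Trbc2 to 580 and 525 CPM and to 806 and 706 CPM, and Trdc to 493 and 402 CPM. Tcrg-C1 gave 476 and 371 CPM, Tcrg-C2 408 and 333 CPM, and Tcrg-C4 295 and 236 CPM. Every member except Cd4 was lower on the CPM scale in library 3. So were the genes that chose the barcodes, Cd3d (753 and 624 CPM), Cd3e (958 and 755 CPM) and Cd3g (2029 and 1541 CPM). The share of all genes that were lower there is not given. A larger part of the UMIs of library 3 came from barcodes of over 10000 UMIs, as given above. The part of such barcodes in the lower levels was not tested. In barcodes of at most 10000 UMIs, Trac gave 537 CPM in library 1 and 533 CPM in library 3, and Cd8a 1330 and 1223 CPM.

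Depth sets part of these shares. After thinning each Cd3 barcode to 1500 UMIs, which left out 13 shallower barcodes in library 1 and 21 in library 3, Trac was detected in 49.5% and 46.6%, Trdc in 46.7% and 39.8% and Cd8a in 68.8% and 63.5%. The coreceptors Cd8b1 and Cd4 were then detected in 8.52% and 3.07%, and in 3.15% and 3.15%. A barcode without a UMI of a member is therefore not shown to lack its transcript.

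**Figure D1:**
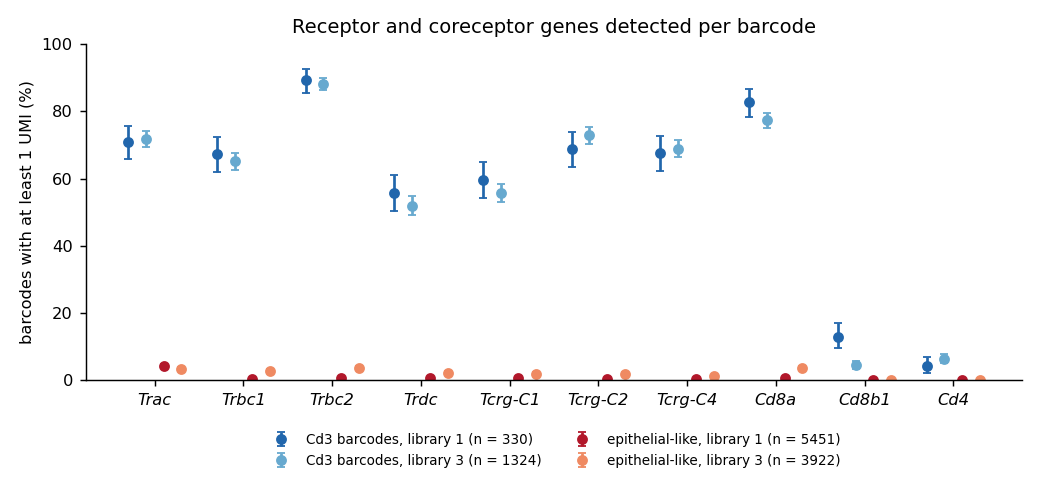
Share of barcodes with at least 1 UMI of each member (percent, points) with exact 95% intervals (bars), for Cd3 barcodes and epithelial-like barcodes of libraries 1 and 3. Trbc2 and Cd8a stand highest, at 77.3% to 89.4%, and Cd8b1 and Cd4 lowest of the Cd3 barcodes, while epithelial-like barcodes stay at or under 4.22%. Epithelial-like barcodes were chosen to hold no UMI of the Cd3 genes or Ptprc.

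Barcodes of other cell classes, named by markers and free of Cd3 UMIs, give a comparison. Epithelial-like barcodes were also chosen to hold no UMI of the leukocyte gene Ptprc or of Ncr1 and Klrb1c. Their low shares of the members are therefore partly set by that choice, and how far was not tested. Epithelial-like barcodes had median depths of 28833 UMIs in library 1 and 29561 in library 3, far above the Cd3 barcodes, and yet held Trdc in 0.605% and 2.27%, Trbc2 in 0.624% and 3.67%, and Cd8a in 0.844% and 3.65%. In Cd3 barcodes these 3 genes were at 52.0% to 89.4%. Trac did not follow the other members. It had 316 and 157 UMIs in the 5451 and 3922 epithelial-like barcodes of libraries 1 and 3, and 96 and 189 UMIs in the 7039 and 6143 of libraries 2 and 4. In those same libraries 2 and 4, epithelial-like barcodes held 0 and 1 UMIs of Trbc2 and 1 and 0 of Cd8a. Trac levels in Cd3 barcodes were 351 and 294 CPM in libraries 1 and 3, against 2.18, 0.505, 1.46 and 1.20 CPM in epithelial-like barcodes of libraries 1 to 4.

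Barcodes with markers of natural killer or innate lymphoid cells and no Cd3 UMI held beta constant and Tcrg-C4 transcripts with almost no alpha. There were 8 of them in library 1 and 32 in library 3, with median depths of 4031.5 and 3832 UMIs. Trbc1 was detected in 100% (63.1 to 100) and 90.6% (75.0 to 98.0), and Tcrg-C4 in 62.5% (24.5 to 91.5) and 68.8% (50.0 to 83.9). Trac was detected in 0% (0 to 36.9) and 3.12% (0.079 to 16.2), and Tcrg-C2 in none of them. Tcrg-C1 was detected in 0 and 1 of these barcodes, and Trdc in 1 and 3. Trbc1 was at 580 and 525 CPM in all Cd3 barcodes, against 956 and 984 CPM in these, and Tcrg-C4 at 295 and 236 CPM, against 382 and 379 CPM. These levels are not on like terms, since only the NK-like barcodes were limited to at most 10000 UMIs. Under that limit, Cd3 barcodes with Trac and no Trdc held Trbc1 at 1058 and 912 CPM and Tcrg-C4 at 348 and 329 CPM. Those with Trdc and no Trac held 538 and 918 CPM, and 503 and 556 CPM. Dendritic-like barcodes, 7 and 16 in number, held 35 and 56 UMIs of Cd8b1 and 13 and 21 UMIs of Cd8a, with 0 UMIs of Trac and Trdc. In the 21 and 107 B-like barcodes Trac and Trdc had 0 UMIs. Plasma-like barcodes (27 and 9) and macrophage- and monocyte-like barcodes (18 and 7) held 0 UMIs of Trac, Trdc and Trbc2, and 3 and 1, and 8 and 0, UMIs of Cd4. Most of these classes hold too few barcodes for more than these counts.

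Most Cd3 barcodes held both alpha-beta and gamma-delta constant transcripts when all 7 constant genes were counted. With 1 UMI as detection, 88.5% (84.5 to 91.7) of Cd3 barcodes in library 1 and 89.4% (87.6 to 91.0) in library 3 held at least 1 of Trac, Trbc1 and Trbc2 and at least 1 of Trdc, Tcrg-C1, Tcrg-C2 and Tcrg-C4. With gamma-delta read from Trdc alone, the shares with both types were 54.5% and 50.8%. With all 7 genes, alpha-beta genes alone were found in 7.88% and 6.34%, gamma-delta genes alone in 2.42% and 1.66%, and neither in 1.21% and 2.64%. The barcodes with neither were deep, with medians of 34931 and 35454 UMIs, and their median share of epithelial marker UMIs was 7.32% and 9.60%. In library 2 the numbers were 3 with both and 1 with alpha-beta genes alone, and in library 4 they were 5 with both and 1 with gamma-delta genes alone.

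Trac and Trdc, whose transcripts come from overlapping loci, showed partial separation. Both had a UMI in 121 of 330 Cd3 barcodes of library 1 and 438 of 1324 of library 3, and neither in 33 and 124. Trac was detected in 65.8% (58.4 to 72.6) of barcodes with Trdc and 77.4% (69.7 to 83.9) of those without in library 1, and in 63.7% and 80.5% in library 3. Even at 4 or more UMIs of each, 15 and 65 barcodes held both. The commonest combination in both libraries was at least 4 UMIs of Trac with 0 of Trdc, in 50 and 209 barcodes, and 33 and 140 barcodes held at least 4 UMIs of Trdc with 0 of Trac.

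**Figure D2:**
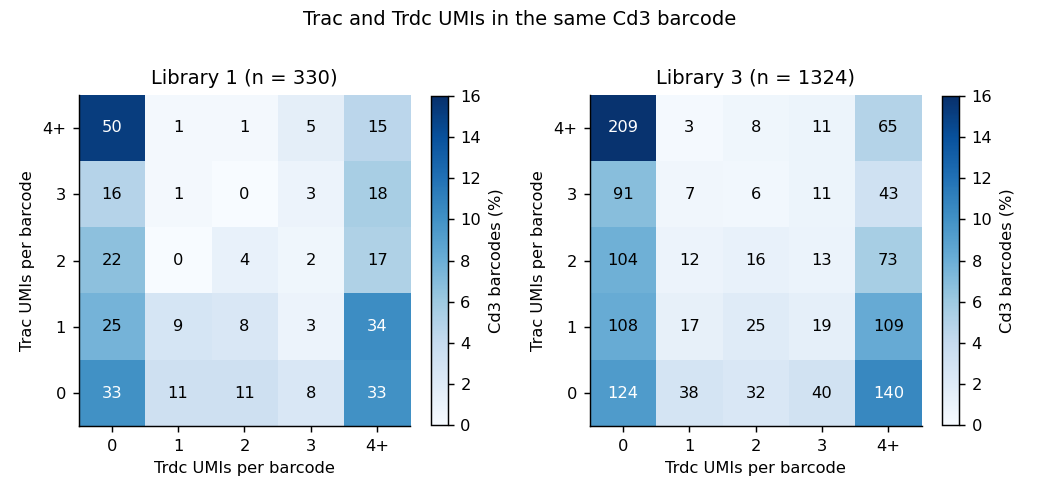
Number of Cd3 barcodes (printed) and their percentage (colour) by UMIs of Trdc (horizontal) and of Trac (vertical), for library 1 and library 3. Barcodes crowd the left column and the right column, and 15 and 65 barcodes fill the corner with at least 4 UMIs of both genes.

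The coreceptors differed in detection between barcodes with and without Trdc UMIs, Cd8a in the direction opposite to Cd8b1 and Cd4. Barcodes with at least 2 UMIs of Trdc numbered 162 in library 1 and 611 in library 3 (median depths 3949 and 4370 UMIs), and those with 0 numbered 146 and 636 (3672 and 3805.5 UMIs). Cd8b1 was detected in 5.56% of the Trdc barcodes and 21.9% of those without Trdc in library 1, and in 0.818% and 8.49% in library 3. Cd4 was detected in 0.617% with Trdc and 8.90% without in library 1, and in 0.327% and 12.7% in library 3. Cd8a ran the other way, at 88.9% with Trdc and 76.7% without in library 1, and 84.3% and 72.2% in library 3. The intervals of Cd8b1 and Cd4 do not overlap between the Trdc classes in either library, and those of Cd8a do not overlap in library 3 but do in library 1. The share of all genes whose intervals do not overlap between these classes is not given, and the part of depth was not tested.

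The gamma constant genes accompanied Trdc to different degrees. Tcrg-C1 was detected in 84.6% of barcodes with at least 2 Trdc UMIs and 31.5% of those with 0 in library 1, and in 83.3% and 29.1% in library 3. Its mean was 4.92 UMIs per barcode with Trdc and 0.822 without in library 1, and 4.97 and 0.643 in library 3. Tcrg-C2 was detected in 85.8% and 50.7% in library 1 and 85.4% and 61.2% in library 3, and Tcrg-C4 in 75.3% and 57.5%, and 81.0% and 58.0%, again with Trdc first. All 3 gamma genes were found together in 52.5% (44.5 to 60.4) of Trdc barcodes and 12.3% (7.47 to 18.8) of those without in library 1, and in 58.9% and 14.2% in library 3. Of the barcodes with no Trdc UMI, 20.5% and 18.7% held no UMI of any of these 3 genes.

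The alpha and beta genes were common on both sides of the split. Trac was detected in 67.9% of barcodes with at least 2 Trdc UMIs and 77.4% of those with 0 in library 1, and in 65.3% and 80.5% in library 3, with means of 1.67 and 2.90, and 1.60 and 2.82, UMIs per barcode. Within the Trdc barcodes the share with Trac was higher at more Trdc UMIs. At 2 to 4, 5 to 8 and at least 9 Trdc UMIs it was 59.7%, 69.0% and 84.4% in library 1 and 59.9%, 66.7% and 73.1% in library 3. Median depth moved the same way, at 3343.5, 4061 and 5050.5 UMIs in library 1 and 3771, 4408 and 5399 UMIs in library 3, and its part was not tested. Trbc2 was detected in 93.2% and 86.3% in library 1 and 91.7% and 86.0% in library 3. Trbc1 was detected in 67.3% and 67.1% in library 1, and in 75.0% (71.3 to 78.3) and 55.0% (51.1 to 58.9) in library 3.

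**Figure D3:**
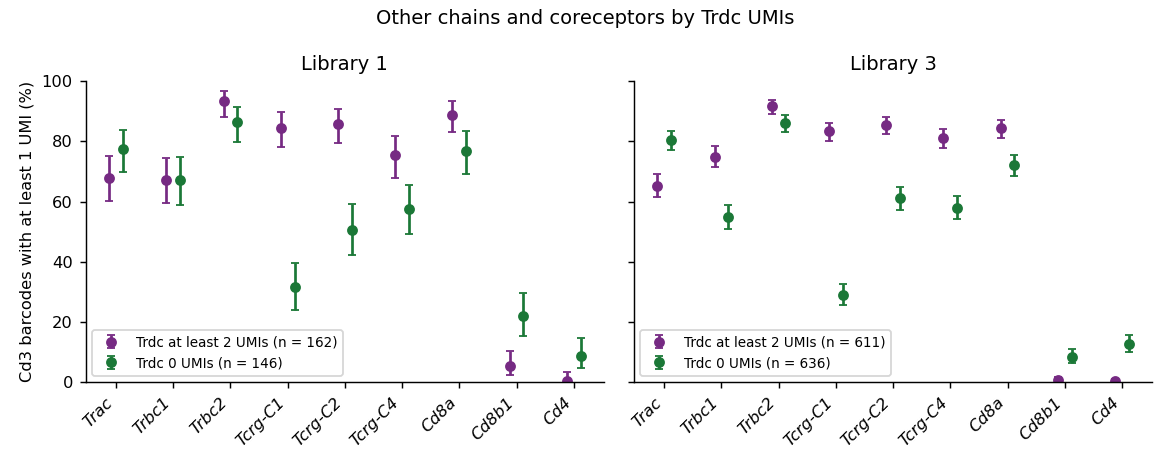
Share of Cd3 barcodes with at least 1 UMI of each other member (percent, points; bars are exact 95% intervals) for barcodes with at least 2 UMIs of Trdc and with 0, in libraries 1 and 3. Tcrg-C1 is at 84.6% and 83.3% with Trdc and at 31.5% and 29.1% without, whereas Cd8b1 and Cd4 are higher without Trdc.

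The balance of the beta genes was also read in barcodes with at least 8 UMIs of Trbc1 and Trbc2 together. A T cell with a single rearranged beta allele is generally expected to use Trbc1 or Trbc2, so the share of Trbc1 would then lie near either end. Trbc1 made up between 10% and 90% of these UMIs in 45 of 53 barcodes with at least 2 Trdc UMIs (84.9%) and 53 of 71 with 0 (74.6%) in library 1. In library 3 it did so in 260 of 304 and 213 of 318. Trbc1 was under 10% in 15.1% and 22.5% in library 1, and in 10.2% and 29.2% in library 3, with Trdc first in each pair. How far reads of the near-identical copies were divided between these genes was not tested.

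Read from the coreceptors' side, Cd8b1 and Cd4 barcodes were mostly without Trdc. Of the 43 and 60 Cd8b1 barcodes of libraries 1 and 3, 42 and 54 also held Cd8a, and 11 and 6 held Trdc. Of the 14 and 84 Cd4 barcodes, 7.14% and 3.57% held Trdc, and 85.7% and 89.3% held Trac. Tcrg-C2 was detected in 35.7% and 66.7% of the same Cd4 barcodes.

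Cd8a alone was the commonest coreceptor pattern on both sides of the Trdc split. It was found in 83.3% of barcodes with at least 2 Trdc UMIs and 54.8% of those with 0 in library 1, and in 83.5% and 59.7% in library 3. Cd8a with Cd8b1 was found in 5.56% and 21.2% in library 1 and in 0.491% and 7.70% in library 3, and Cd4 alone in 0.617% and 8.22%, and in 0% and 7.86%. No coreceptor was detected in 10.5% and 14.4% in library 1 and 15.4% and 19.3% in library 3. Cd4 and Cd8a without Cd8b1 met in 1 barcode of library 1 and 31 of library 3, of which 29 had no Trdc UMI. These 31 barcodes had a median of 4074 UMIs, close to the 4022.5 of all Cd3 barcodes of library 3.

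Variable segments are read only rarely by a 3′ assay. Delta variable genes (6 genes) were detected in 13.0% of barcodes with at least 2 Trdc UMIs and 0.685% of those with 0 in library 1, and in 10.3% and 1.10% in library 3. The gamma segment Tcrg-V7, known from gut intraepithelial gamma-delta T cells, was detected in 17.3% and 0.685% in library 1 and 15.1% and 1.73% in library 3. Trgv2 was widespread, at 55.6% and 27.4% in library 1 and 42.9% and 31.4% in library 3. Beta variable genes (35 genes), whose intervals overlap in library 1, were at 1.23% and 3.42% in library 1 and 1.80% and 6.76% in library 3, and alpha variable genes (128 genes) were at 6.79% and 9.59%, and 7.20% and 7.86%.

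Gamma constant genes had higher detection shares in barcodes with Tcrg-V7, Trgv2, Tcrg-V1 or Tcrg-V4 than in those without, both the constant gene of the segment's own cassette and others, except Tcrg-C4 with Tcrg-V7 in library 1 (61.8% and 68.2%). Tcrg-V7 lies 35.611 kb before Tcrg-C1, and Tcrg-C1 was detected in 97.1% (84.7 to 99.9) of the 34 barcodes with Tcrg-V7 and 55.4% (49.5 to 61.2) of those without in library 1, and in 89.1% of 110 and 52.8% in library 3. The mean number of Tcrg-C1 UMIs was 7.12 with Tcrg-V7 and 2.43 without in library 1, and 6.55 and 2.36 in library 3. Trgv2 lies 29.022 kb from Tcrg-C2, which was detected in 90.6% of the 139 barcodes with Trgv2 and 52.9% of those without in library 1, and in 92.2% of 490 and 61.5% in library 3. Tcrg-V1 lies 4.104 kb from Tcrg-C4, which was detected in 82.8% (64.2 to 94.2) of 29 barcodes with Tcrg-V1 and 66.1% (60.5 to 71.4) of those without in library 1, where the intervals overlap, and in 89.2% (79.8 to 95.2) of 74 and 67.7% (65.0 to 70.3) in library 3. Tcrg-V4 belongs to the Tcrg-C1 cassette, and Tcrg-C1 was detected in 63.2% (38.4 to 83.7) of 19 barcodes with Tcrg-V4 and 59.5% (53.8 to 65.0) of those without in library 1, where the intervals overlap, and in 84.2% (72.1 to 92.5) of 57 and 54.5% (51.7 to 57.3) in library 3. Apart from Tcrg-C4 with Tcrg-V7 in library 1, genes of other cassettes were also more frequent with a segment, though several intervals overlap. In library 1 Tcrg-C2 was detected in 94.7% (74.0 to 99.9) of barcodes with Tcrg-V4 and 67.2% (61.7 to 72.4) of those without, and in 86.2% with Tcrg-V1 and 67.1% without. In library 3 it was at 77.2% (64.2 to 87.3) with Tcrg-V4 and 72.7% (70.1 to 75.1) without, where the intervals overlap. With Tcrg-V1 and without it, Tcrg-C2 was at 83.8% and 72.2% in library 3, and the intervals overlap in both libraries. With Trgv2 and without it, Tcrg-C1 was detected in 71.9% and 50.8% and Tcrg-C4 in 77.0% and 60.7% in library 1. In library 3 these shares were 60.8% and 52.9% for Tcrg-C1 and 78.2% and 63.4% for Tcrg-C4. Tcrg-C1 was at 62.1% with Tcrg-V1 and 59.5% without in library 1, and at 64.9% and 55.3% in library 3, with overlapping intervals.

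Trdc and Cd8a were detected more often with Tcrg-V7 than without, while the intervals of Cd8b1 and Trac overlap in both libraries. Trdc was detected in 97.1% of barcodes with Tcrg-V7 and 51.0% of those without in library 1, and in 99 of 110 barcodes (interval 82.8% to 94.9%) and 48.5% in library 3. Cd8a was detected in 100% and 80.7% in library 1 and in 97.3% and 75.5% in library 3, and Cd8b1 in 2.94% (0.074 to 15.3) and 14.2% (10.4 to 18.7), and in 1.82% (0.22 to 6.41) and 4.78% (3.65 to 6.13). Trac was detected in 70.6% (52.5 to 84.9) and 70.9% (65.4 to 76.1) in library 1, and in 73.6% (64.4 to 81.6) and 71.6% (69.0 to 74.1) in library 3.

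**Figure D4:**
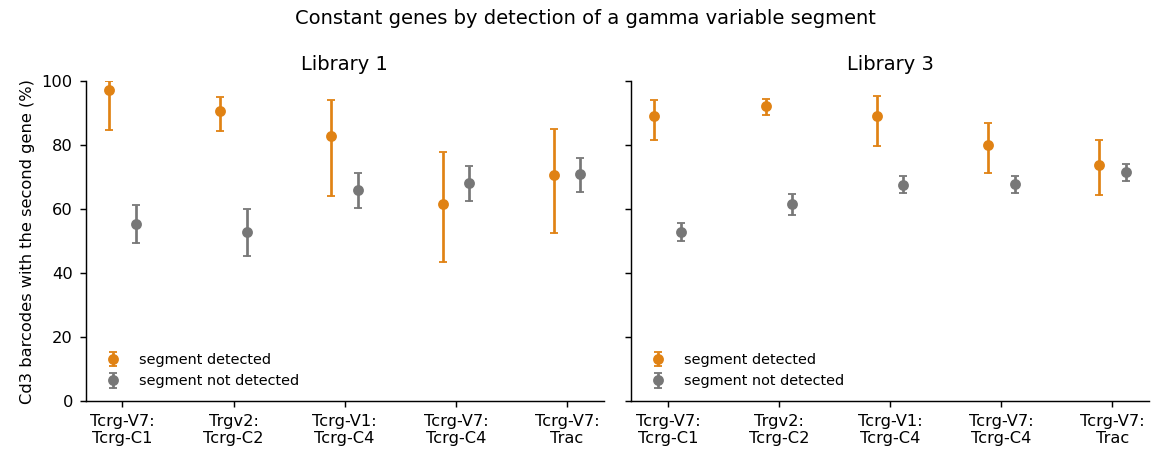
Share of Cd3 barcodes with a constant gene (percent, points; bars are exact 95% intervals) where a gamma variable segment was detected and where it was not, in libraries 1 and 3; each label gives the segment, then the constant gene. Tcrg-C1 with Tcrg-V7 is at 97.1% and 89.1%, against 55.4% and 52.8% without it, while Trac is at 70.6% and 73.6% with Tcrg-V7 and at 70.9% and 71.6% without it.

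Expression outside the receptor was compared between classes within each library, as the ratio of summed CPM plus 10 CPM. A gene counted as different when it was at least 2-fold higher or at least 2-fold lower in both library 1 and library 3, among genes with a mean of at least 50 CPM. With all constant genes used to define classes, the gamma-delta only class held 8 and 22 barcodes and the alpha-beta only class 26 and 84. There 174 of 2941 genes (5.92%) differed, 18 higher and 156 lower. Within the alpha-beta only class, 330 of 2768 genes (11.9%) differed between barcodes with Cd8a and no Cd8b1 and barcodes with Cd8b1, and 178 of 2753 (6.47%) between barcodes with Cd4 and no Cd8 and barcodes with Cd8 and no Cd4. A single UMI was worth 105 CPM in the gamma-delta only class of library 1, so no genes are named from these ratios. Larger classes were formed after these sizes were seen, from Trac and Trdc alone in barcodes of at most 10000 UMIs, and a gene there also needed 5 UMIs in the higher class of each library. The genes that define the classes are left out of all counts.

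Few genes differed between barcodes with Trdc and no Trac and barcodes with Trac and no Trdc. There were 59 and 224 of the first and 103 and 467 of the second in libraries 1 and 3. None of 3088 genes (0%) was higher and 7 (0.227%) were lower. The classes also differed in coreceptors. Cd4 was held by 1 and 0 Trdc barcodes and 11 and 64 Trac barcodes, and Cd8b1 by 2 and 3, and 22 and 44. The part of this make-up in the lower genes was not tested. Cd5, which damps receptor signalling, was at 10.1 CPM with Trdc and 123 CPM with Trac in library 1, and 3.48 and 102 CPM in library 3. Its Trdc values rest on 2 and 3 UMIs, and the ratio of Trac over Trdc barcodes was 12.2 (3.21 to 104) and 29.3 (9.86 to 143). Its relative Cd6 was at 25.1 and 142 CPM, and 17.4 and 170 CPM. Ctla4, an inhibitory receptor, was at 25.1 and 113 CPM, and 5.80 and 86.1 CPM. Lgals1, Klre1 and Ifi27l2a were the other lower genes with UMIs in both classes. The cytokine gene Il17a, the remaining gene, had 0 UMIs with Trdc, and its 107 UMIs with Trac in library 1 came from 2 barcodes and its 19 in library 3 from 1.

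Of the 7 lower genes, Cd5, Cd6, Klre1, Ctla4 and Il17a belong to the gene lists, which were chosen with earlier results of these data known. Of 12 tested genes of cytotoxic mediators and chemokines none was called (median log2 ratios 0.22 and -0.21, beside 0.03 and 0.01 over all genes tested), and the granule protease gene Gzma was at 23760 CPM with Trdc and 19564 CPM with Trac in library 1, and 12400 and 18952 CPM in library 3. Of 10 NK-type receptor and adaptor genes 1 was lower (Klre1), and of 15 residency and gut homing genes none was called. Cd5 and Cd6 were the 2 lower genes of 17 tested in the CD3 and receptor signalling list. Ctla4 and Il17a were the 2 lower genes of 5 in the helper and regulatory list. None was called of 3 naive and memory genes or of 6 lineage transcription factors. Among the members, Tcrg-C1 was at 815 and 191 CPM, and 806 and 187 CPM, and Cd8b1 at 20.1 and 164 CPM, and 3.48 and 91.0 CPM, whereas Tcrg-C2 was at 659 and 412 CPM, and 594 and 566 CPM.

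Within barcodes with Trac and no Trdc, those with Cd8a and no Cd8b1 carried more of several NK-type genes than those with Cd8b1. The classes held 61 and 327 barcodes with Cd8a and no Cd8b1, and 22 and 44 with Cd8b1, in libraries 1 and 3. Of 3010 genes, 49 (1.63%) were higher and 21 (0.698%) lower. Tyrobp, a signalling adaptor of NK receptors, was at 1964 CPM without Cd8b1 and 50.2 CPM with it in library 1, and 1534 and 38.9 CPM in library 3. Its UMIs in the Cd8b1 barcodes were 4, in 1 barcode, and 7, in 2. Fcer1g, an adaptor that can stand in for the CD3 zeta chain, was at 2571 and 351 CPM, and 2220 and 444 CPM. Klrd1, a chain of inhibitory and activating NK receptors, was at 1279 and 414 CPM, and 1202 and 333 CPM.

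In all, 6 of 9 tested genes of the NK-type list were higher (Fcer1g, Tyrobp, Cd244a, Klrd1, Klre1 and Cd7) and none lower. The list's median log2 ratio was 1.57 in library 1, or 1.40 with the gene at 0 UMIs set to the limit of 3 counts, and 1.46 in library 3, beside medians of 0.06 and 0.02 over all genes tested. Klrb1a, another NK-type receptor gene, and Irf8, an interferon-linked transcription factor, were among the 8 highest, with Gm156, Cela1 and Itih5. Gm156 had 44 and 371 UMIs without Cd8b1 and 0 and 0 with it, which is at least 4.79-fold and at least 16.9-fold higher against 3 counts over the class. Of 12 cytotoxic genes only Gzma was called, at 25345 and 10613 CPM, and 23601 and 9026 CPM. Ikzf2, the Helios transcription factor, was higher, at 910 and 238 CPM, and 790 and 211 CPM, and was the gene called among 3 tested of the helper and regulatory list.

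The genes lower without Cd8b1 were led by Ms4a4b, Il7r and Thy1. Il7r, the interleukin 7 receptor alpha chain, was at 8.20 CPM without Cd8b1 and 339 CPM with it in library 1, and 19.8 and 300 CPM in library 3. The lower value of library 1 rests on 2 UMIs, a ratio of 41.3 (10.4 to 358) of Cd8b1 barcodes over the others. Ms4a4b was at 36.9 and 565 CPM, and 45.6 and 578 CPM, and Thy1, a T cell surface glycoprotein, at 24.6 and 351 CPM, and 52.5 and 305 CPM. BE692007, Gm8369 and Rora, a retinoid-related nuclear receptor, were also among the 8 lowest. Of 19 tested signalling genes 5 were lower. These were Lat (127 and 414 CPM, and 160 and 444 CPM), the membrane scaffold of receptor signalling, the costimulatory receptor Cd28, the adhesion receptor Cd2, Cd6, and Themis, which acts in thymic selection. Lck, Zap70 and Cd3e were not called. Bcl11b, a T lineage transcription factor, was the lower gene of 6 in its list, Il7r that of 3 in the naive and memory list, and none of 14 residency genes was called.

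Among the receptor genes, Tcrg-C4 was at similar levels in these Cd8 classes. Every barcode of both classes was chosen to hold Trac, so the levels of Trac are partly set by that choice. Trac was at 894 CPM without Cd8b1 and 903 CPM with it in library 1, and 887 and 717 CPM in library 3. Tcrg-C4 was at 402 and 389 CPM, and 376 and 311 CPM. Tcrg-C1 differed between libraries, at 209 and 201 CPM in library 1 and 239 and 44.4 CPM in library 3, where the Cd8b1 barcodes held 8 UMIs of it.

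Genes passed the 2-fold rule in both directions between Cd4 and Cd8 barcodes. The Cd4 class was the smallest in the ratios of the larger classes, so the number of genes is not ranked against the others. A single UMI was worth 21.3 CPM in the Cd4 class of library 1 and 7.06 CPM in that of library 3. Among barcodes with Trac and no Trdc, 10 and 38 had Cd4 and no Cd8, and 82 and 345 had Cd8 and no Cd4, and of 3043 genes 66 (2.17%) were higher and 73 (2.4%) lower. Maf, a transcription factor of helper T cells, was at 554 CPM with Cd4 and 31.2 CPM with Cd8 in library 1, and 663 and 31.6 CPM in library 3. The costimulatory receptor genes Tnfrsf4 (554 and 12.5 CPM, and 155 and 2.16 CPM), Cd28 (490 and 37.4 CPM, and 318 and 19.4 CPM) and Icos (235 and 15.6 CPM, and 247 and 10.8 CPM) were higher. Lgals1, Tmem176a, Tmem176b and Cd5 completed the 8 highest. Tnfrsf4 rested on 4 and 3 UMIs with Cd8, and its ratio in library 3 was 72.0 (21.6 to 376).

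Tyrobp and Fcer1g were nearly absent with Cd4. Tyrobp had 0 UMIs with Cd4 and 483 with Cd8 in library 1, at least 23.6-fold lower against 3 counts over the class, and 1 and 2010 UMIs in library 3, a ratio of Cd8 over Cd4 barcodes of 205 (36.7 to 8088). Fcer1g had 0 and 655 UMIs in library 1, at least 32.0-fold lower, and was at 56.4 and 2144 CPM in library 3. Klrd1, Car2 (carbonic anhydrase 2), Cd200r2, Gm156, Klrb1a and Spry2 completed the 8 lowest. In the NK-type list 8 of 9 tested genes were lower and none higher, with median log2 ratios of -3.55 and -2.30, or -2.78 and -2.30 with genes at 0 UMIs set to 3 counts, beside 0.03 and 0.05 over all genes tested. In the cytotoxic list 7 of 12 were lower (Gzma, Gzmb, Nkg7, Ccl3, Xcl1, Ctsw and Cst7), with medians of -2.13 and -1.06. Gzma was at 1109 and 21582 CPM, and 5624 and 21341 CPM, and Ccl5, a chemokine gene, at 1983 and 23014 CPM, and 12320 and 22084 CPM, which missed the 2-fold rule in library 3.

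Helper genes were higher with Cd4 in 5 of 9 tested (Maf, Ctla4, Icos, Tnfrsf4 and Ifng), at median log2 ratios of 2.80 and 1.24, and signalling genes in 6 of 19 (Cd247, Lat, Cd28, Cd5, Cd6 and Cd2), with none lower in either list. Il17a was held by 1 barcode of library 1, with 48 UMIs, and by no barcode of library 3. Of 4 naive and memory genes Il7r and Satb1 were higher. In the residency and homing list 2 of 14 were higher, the integrin gene Itga4 and the gut homing receptor gene Ccr9 (490 and 159 CPM, and 303 and 147 CPM), and 3 were lower, the collagen-binding integrin gene Itga1 and the receptors Gpr18 and Gpr55. Tox and Ikzf3 were the lower 2 of 6 lineage transcription factors.

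Summed levels of the gamma genes were lower with Cd4, unevenly between the genes and on few UMIs. Tcrg-C4 was at 21.3 CPM with Cd4 and 390 CPM with Cd8 in library 1, and 98.8 and 370 CPM in library 3. Tcrg-C1 was at 149 and 209 CPM, and 14.1 and 230 CPM. Tcrg-C2 was at 42.6 and 506 CPM, and 452 and 588 CPM, so that the size of its difference depended on the library. With Cd4 these values rest on 1 and 14 UMIs of Tcrg-C4, 7 and 2 of Tcrg-C1 and 2 and 64 of Tcrg-C2. The 7 UMIs of Tcrg-C1 came from 2 barcodes, with up to 6 in a single barcode. Its ratio in library 1 was 0.714 (0.276 to 1.55), an interval that includes 1. Trac was at 768 and 892 CPM, and 840 and 864 CPM, and the intervals of its ratio include 1 in both libraries. Every barcode of both classes was chosen to hold Trac, so its levels are partly set by that choice. Trbc1 was at 597 CPM with Cd4 and 1201 CPM with Cd8 in library 1, a ratio of 0.497 (0.326 to 0.730). In library 3 it was at 804 and 976 CPM, a ratio of 0.824 (0.674 to 0.998). These UMIs came from 7 Cd4 and 53 Cd8 barcodes in library 1, with up to 9 and 30 in a single barcode. In library 3 they came from 18 and 211 barcodes, with up to 16 and 33. The intervals do not cover spread between barcodes, so no difference is read from them. Trbc2 was at 1642 and 1576 CPM in library 1, a ratio of 1.04 (0.809 to 1.33), and at 1320 and 1741 CPM in library 3, a ratio of 0.758 (0.650 to 0.880).

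**Figure D5:**
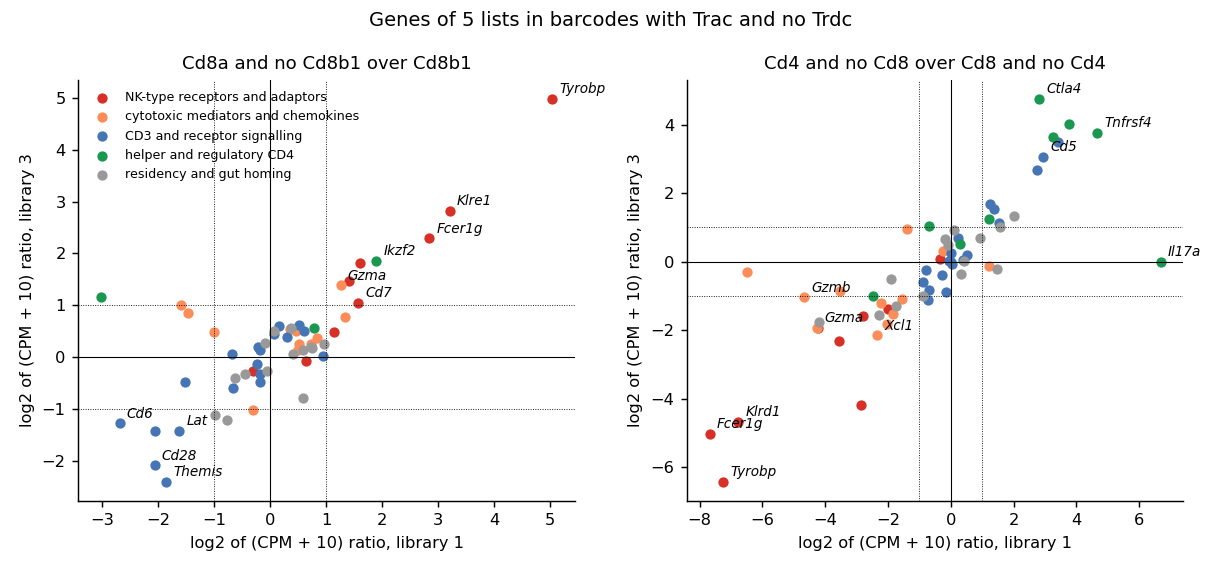
Log2 ratio of summed CPM plus 10 CPM in library 1 (horizontal) and library 3 (vertical) for tested genes of 5 lists, in barcodes with Trac and no Trdc, for Cd8a and no Cd8b1 over Cd8b1 (left) and Cd4 and no Cd8 over Cd8 and no Cd4 (right); dotted lines mark a 2-fold ratio. Tyrobp and Fcer1g stand at the upper right of the left panel and the lower left of the right panel. In the right panel the helper and signalling genes called higher stand at the upper right, and Il17a stands off the diagonal. The signalling list as a whole has medians of 0.02 and 0.04 there.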

How the data were processed

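Raw UMI counts per gene and barcode were deposited by the authors as a single matrix, made with Cell Ranger 6.1.1 on mm10 per the submitters' processing notes. How reads shared by near-identical genes were counted is not given in the sources used here. From these counts, CPM (a class's summed UMIs of a gene per 1000000 UMIs), shares of barcodes and class ratios were computed with Python 3.11.15, NumPy 2.4.6, pandas 2.3.3 and SciPy 1.17.1. Intervals at 95% cover counting error only. No label ties a library to a diet, so no diet comparison, p-value or SD was computed, and libraries are not replicates. Gene copies were aligned with MAFFT 7.526 on GENCODE transcripts of mm10. The class ratio step was run on simulated counts for the ratio of Trdc over Trac barcodes only. Those counts were drawn from class sums without spread between barcodes, so they do not show how the ratios behave under such spread.

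The members, gene lists and markers were chosen with earlier results of these data known. Genes named in class ratios were the 8 highest and 8 lowest by the smaller log2 ratio of libraries 1 and 3, without receptor, coreceptor and mitochondrial genes, and members of the lists. The combination of Cd4 with Cd8a was picked after its values were seen.

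Several choices were added after the data were seen. These were the 3 ratios of the larger classes, their limits of 10000 UMIs per barcode and 5 UMIs per gene, and the Trdc classes. The gates of other cell classes were also changed after levels were seen. The marker list of the macrophage and monocyte gate was shortened, at most 2 UMIs of Epcam, Cdh1, Krt8 and Vil1 were allowed there, and the plasma gate allowed 2 such UMIs in place of 1. This gave 5451 and 3922 epithelial-like barcodes in libraries 1 and 3 (3784 and 3359 with the first gates), 18 and 7 macrophage- and monocyte-like (91 and 21), and 27 and 9 plasma-like (12 and 5).

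Doublets were kept. As alternatives, the 6% of barcodes with the highest Scrublet scores (scanpy 1.11.5) in each library were removed, or those that also met a B cell, plasma cell or myeloid gate.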

Additional observations from a re-analysis of the deposited data

How the results depend on the processing

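The alternatives were run on detection shares, CPM values, receptor class shares, conditional shares and counts of genes, and not on the variable segments, the balance of Trbc1 and Trbc2 or the Trdc bins. Thinning to 1500 UMIs turned the order of libraries 1 and 3 in detection for Trac (70.9% and 71.8%, then 49.5% and 46.6%), Tcrg-C2 (68.8% and 72.9%, then 49.5% and 47.7%) and Tcrg-C4 (67.6% and 68.9%, then 41.0% and 38.8%). No paired analysis was possible because no library can be assigned to a labelled sample, and for the same reason no replicate of a group could be left out. Under the alternatives, 255 of 270 CPM values, 118 of 180 detection shares, 373 of 486 conditional shares and 42 of 66 receptor class shares stayed within the exact 95% interval of the value reported, and 57 of 108 counts of genes higher or lower within 1.5 times it, and 56 of 62 moved detection shares were lower. The gates, larger classes and depth limits were chosen after seeing the data. The causes of the moves that follow were not tested beyond each alternative's construction.

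With at least 1 Cd3 UMI, library 2 held 11 Cd3 barcodes, both receptor types were found together in 65.8% and 63.9% of barcodes in libraries 1 and 3, Cd8b1 without Trdc in 12.6% and 4.68%, and Cd4 without Trdc in 7.06% in library 3. With at least 4 Cd3 UMIs, both types were found in 93.1% in library 3. After thinning to 1500 UMIs, both types were found in 75.1% and 74.5%, Cd8b1 without Trdc in 14.2% and 4.75%, Cd4 without Trdc in 2.84% and 5.01%, and Trac with at least 2 Trdc UMIs in 41.1% and 37.6%. With 2 UMIs as detection, both types were found in 77.0% and 76.7%, Trac with at least 2 Trdc UMIs in 42.7% and 42.1%, and Cd8b1 and Cd4 without Trdc in 6.13% and 5.66% in library 3. With gamma-delta read from Trdc alone, both types were found in 54.5% and 50.8%, and with alpha-beta read from Trac alone in 64.2% and 66.8%. In barcodes of at most 10000 UMIs they were found in 91.5% in library 3.

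Gene counts moved more. For gamma-delta only over alpha-beta only, 42 genes differed after thinning, 42 with 2 UMIs as detection, 289 with Trdc alone, 70 with Trac alone, 87 with 50 CPM added, 629 with a minimum of 10 CPM and 318 in barcodes of at most 10000 UMIs. For Cd8a over Cd8b1 in the alpha-beta only class there were 179 with 2 UMIs as detection, 56 with Trdc alone, 121 with 50 CPM added and 1203 with a minimum of 10 CPM. For Cd4 over Cd8 there, there were 505 after thinning, 55 with 50 CPM added and 572 with a minimum of 10 CPM. In the larger classes, Trdc over Trac barcodes gave 4 genes after thinning, 3 with 50 CPM added, 19 with a minimum of 10 CPM and 11 in barcodes of any depth. Cd8a over Cd8b1 barcodes gave 118, 36 and 191 under thinning, 50 CPM and the 10 CPM minimum, and Cd4 over Cd8 barcodes gave 88 with 50 CPM added and 356 with the 10 CPM minimum. Libraries 2 and 4 hold too few Cd3 barcodes to check any of this.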
